A study of Mus musculus with 2 samples.

Results

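The cells described here are 278 fibroblasts of the mouse lung that carried transcripts of Tcf21 and its companion genes, out of 3410 cells that passed filtering in 2 single-cell libraries. The niche library contributed 142 of them and the distal lung library 136. The niche library held CD45-negative lung cells titled as niche cells, and the distal library held CD45-negative cells titled as distal lung cells. Both came from lungs taken 7 days after Labelling-4T1 cells, a mouse mammary carcinoma line engineered to mark neighbouring cells with a fluorescent protein, had been injected into a vein. Mouse strain, age, the number of lungs pooled and the gates other than CD45 were not given in the labels, and the distal cells came from lungs that had received tumour cells too. Members came from barcodes showing 500 or more genes and no more than 10% mitochondrial transcripts, and met a rule on unique molecular identifiers (UMIs, each a counted transcript molecule). The summed UMIs of Col1a1, Col1a2, Col3a1, Mfap4 and Bgn had to be at least 3 and above those of the endothelial genes Pecam1, Cdh5, Cldn5, Egfl7 and Ramp2. Tcf21, Slc7a10, Figf and Cdo1 had to sum to at least 3. The sums of Hhip, Aspn, Mustn1 and Enpp2 (alveolar myofibroblast genes) and of Pi16, Igfbp6, Scara5 and Entpd2 (adventitial fibroblast genes) had to be under 3. Cxcl9 and Timp1 together had to be under 10, so cells with the strongest signal of these inflammatory genes were outside the set.

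Alveolar lipofibroblasts lie in the interstitium next to alveolar type 2 cells and capillaries. They store neutral lipid in droplets coated by perilipins, handle retinoids, deposit elastic and basement membrane proteins, and secrete growth factors that act on the alveolar epithelium. In mouse, Tcf21 encodes a basic helix-loop-helix transcription factor of the lung mesenchyme whose lineage includes these cells. Nephronectin, the product of Npnt, is a basement membrane ligand of the integrin whose alpha chain is encoded by Itga8, so that a ligand and its receptor subunit are both markers of the type.

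The niche library had 1423 filtered cells and the distal library 1987, with 1 library per group. The groups could therefore not be tested against each other, and every interval given is a 95% interval for counting error only. Mesenchymal cells, those passing the collagen and Mfap4 criterion, were 793 niche and 373 distal cells. The typical niche member held 2801.5 UMIs of 1280.5 genes (medians), against 2227 UMIs of 1113 genes for distal members, and the medians of mitochondrial UMIs were 3.08% and 2.45%. Low Malat1, fewer than 5 UMIs of this nuclear RNA, marked 15 niche and 8 distal members, and Scrublet called 2 members of each library as doublets. The libraries shared 7 barcodes, none of them a member. The cells were summed per library and scaled to 1000000 UMIs of the 10198 genes listed in both tables (CPM). A gene is called higher or lower where its niche to distal ratio was at least 2-fold and the exact conditional binomial interval left out equality.

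Members made up 17.9% of niche mesenchymal cells (142 of 793, Clopper-Pearson interval 15.3% to 20.8%) and 36.5% of distal mesenchymal cells (136 of 373, 31.6% to 41.6%). Over all cells the order was the other way round, with 9.98% in the niche (8.47% to 11.7%) against 6.84% in the distal library (5.77% to 8.04%). Mesenchymal cells were 55.7% of the niche cells and 18.8% of the distal cells. The part of sorting and dissociation in these shares was not tested. Where cells were thinned to 1200 UMIs and the rule applied again, the share of mesenchymal cells was 12.4% in the niche against 35.8% in the distal library. Each criterion can be followed in turn. The Tcf21 marker sum was reached by 238 niche and 179 distal mesenchymal cells, 214 and 168 of them remained after the Hhip criterion, 165 and 136 after the Pi16 criterion, and 142 and 136 after the limit on Cxcl9 and Timp1. That last limit removed 23 of 165 niche cells (13.9%, 9.05% to 20.2%) and 0 of 136 distal cells (0% to 2.68%). It is a count of UMIs and was not scaled for depth. Among the cells that met all other criteria, the marker sum was just outside the limit, at 2 UMIs, in 36 niche and 5 distal cells, and just inside it, at 3 UMIs, in 31 niche and 8 distal cells. The median sum in members was 6 UMIs in the niche (highest 26) and 11 in the distal library (highest 45).

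**Figure D1:**
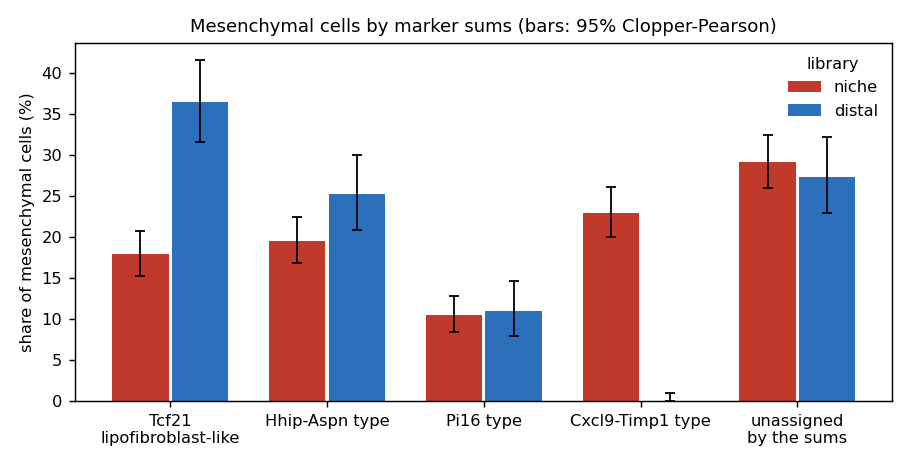
Share of mesenchymal cells (percent) in each class set by marker sums, niche in red and distal in blue, with exact binomial 95% intervals as error bars. Members stand at 17.9% in the niche against 36.5% in the distal library, and the Cxcl9-Timp1 type, cells with at least 10 UMIs of these genes, at 22.95% and 0%.

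The genes that chose the members differed in how many cells carried them. Tcf21 was detected in 121 of 142 niche and 129 of 136 distal members. Slc7a10, which encodes a neutral amino acid transporter, was detected in 73 niche and 102 distal members, Figf, the gene of vascular endothelial growth factor D, in 97 and 104, and the cysteine dioxygenase gene Cdo1 in 104 and 118. All 4 genes were present together in 38 niche and 70 distal members, and 12 niche and 2 distal members met the rule through a single gene. As levels, Tcf21 stood at 975 CPM in niche members against 2305 in distal members, Slc7a10 at 321 and 798, Figf at 535 and 1116, and Cdo1 at 719 and 1427. These values chose the cells and are given as a description. The log2 ratio of Tcf21 was -1.24, and it was -0.42 with thinned cells. Ratios, list medians and gene counts given with thinned cells come from the cells that met the rule again after thinning. These were 93 niche and 115 distal cells, so the set of cells changed as well as the depth. Detection counts and per-cell medians after thinning keep the original members.

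Npnt and Itga8, the label's markers that the rule left aside, were found in these cells: 125 of 142 niche and 128 of 136 distal members had a UMI of at least 1 of them. Npnt stood at 995 CPM in niche members against 204 in other niche mesenchymal cells, and at 1773 in distal members against 216 in other distal mesenchymal cells. Itga8 stood at 337 against 54.2 CPM in the niche and at 571 against 116 CPM in the distal library. The label's marker list also holds Tcf21, Slc7a10 and Figf, which chose the members, so its sum is not given as a check. Marker list levels are scaled to the UMIs of every gene in a library's own table. The alveolar myofibroblast list, which holds genes the rule kept under 3 UMIs, summed to 431 CPM in niche members against 480 in distal members, with Fgf18 at 0 in both libraries, Hhip at 0 in distal members and 6 and 5 of 7 genes detected. The smooth muscle list was at 228 and 51.2 CPM (3 of 5 genes in each) with Myh11 at 0, and the immune list at 6.71 CPM in niche (3 of 6 listed genes) and 0 in distal members (0 of 2 listed genes). Adventitial markers are the 4 genes of the rule with Dcn, Col14a1 and Clec3b. They summed to 1766 CPM in niche (6 of 7 genes) and 1834 in distal members (5 of 7). Other mesenchymal cells reached 4424 and 8979 CPM of the same list. Most of the sum in members was Clec3b, with 1354 and 1497 CPM of the common genes, against 240 and 76.9 CPM for Dcn. At least 10 UMIs of the list were held by 23 niche and 9 distal members, and the highest member held 88 and 32 UMIs. The part of such cells in the ratios between the libraries was not tested. Pericyte markers were at 114 CPM in niche (7 of 7) and 506 in distal members (6 of 6 listed). The endothelial list, which holds genes the rule kept below the collagen sum, was at 255 and 339 CPM (7 of 7 in each), against 12152 and 13165 in endothelial cells, and the keratin list was at 4.47 and 16.0 CPM with 2 of 5 genes detected. The alveolar type 2 list was at 141 CPM in niche members against 2442 in distal members, the alveolar type 1 list at 98.4 and 160, and the club cell list at 539 and 147. Haemoglobin and other erythroid genes were at 275 CPM in niche members, and the 1 gene listed in the distal table at 6.4 CPM in distal members.

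Genes outside the rule that stood highest in members over other mesenchymal cells, taking the lower of the 2 libraries' interval bounds, included Inmt, Gyg and Ces1d. Inmt, an indolethylamine methyltransferase gene, reached 8181 CPM in niche members against 1583 in other niche mesenchymal cells, and 13828 against 3215 in the distal library. Gyg, the gene of glycogenin, which primes glycogen synthesis, was at 1280 against 254 CPM in the niche and 1686 against 180 in the distal library. The carboxylesterase gene Ces1d was at 1363 against 244 and 1616 against 221 CPM. The others were Mettl7a1, the nebulette gene Nebl, Limch1 and Macf1 of the actin and microtubule cytoskeleton, Cdkn2c, which encodes a cyclin-dependent kinase inhibitor, Scube2, Epha1, an ephrin receptor gene, the beta-3 adrenergic receptor gene Adrb3, and Npnt itself. Since the members were picked from the same cells, these are a description of the set.

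Lipofibroblast functions were represented unevenly. Plin2, the gene of the lipid droplet coat protein, was at 353 CPM in niche members against 123 in other niche mesenchymal cells and at 369 against 78.7 in the distal library. G0s2, which encodes an inhibitor of the lipase that empties droplets, was at 589 against 99.6 and 1064 against 214 CPM. Lipoprotein lipase, Lpl, was lower in members than in the other mesenchymal cells in the distal library, at 32.1 against 147 CPM, and at 74.1 against 103 CPM in the niche. Aldh1a1, a retinaldehyde dehydrogenase gene, was at 611 against 129 and 1020 against 152 CPM. Among secreted factors, Wnt2 was at 175 against 34.7 and 321 against 39.4 CPM, Bmp3 at 175 against 33.3 and 160 against 49.6, and Fgf10, a growth factor for alveolar epithelium, at 42.7 against 15.2 and 44.9 against 13.7. Pdgfra, the platelet-derived growth factor receptor of lung fibroblasts, was at 402 against 135 and 567 against 139 CPM, while Pdgfrb, the receptor of pericytes, was at 35.9 against 107 and 25.6 against 125. Fgfr4 was at 69.6 against 15.2 and 221 against 6.85 CPM. The transcription factor gene Foxf1 was at 44.9 against 75.5 CPM in the niche and 32.1 against 97.6 in the distal library.

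**Figure D2:**
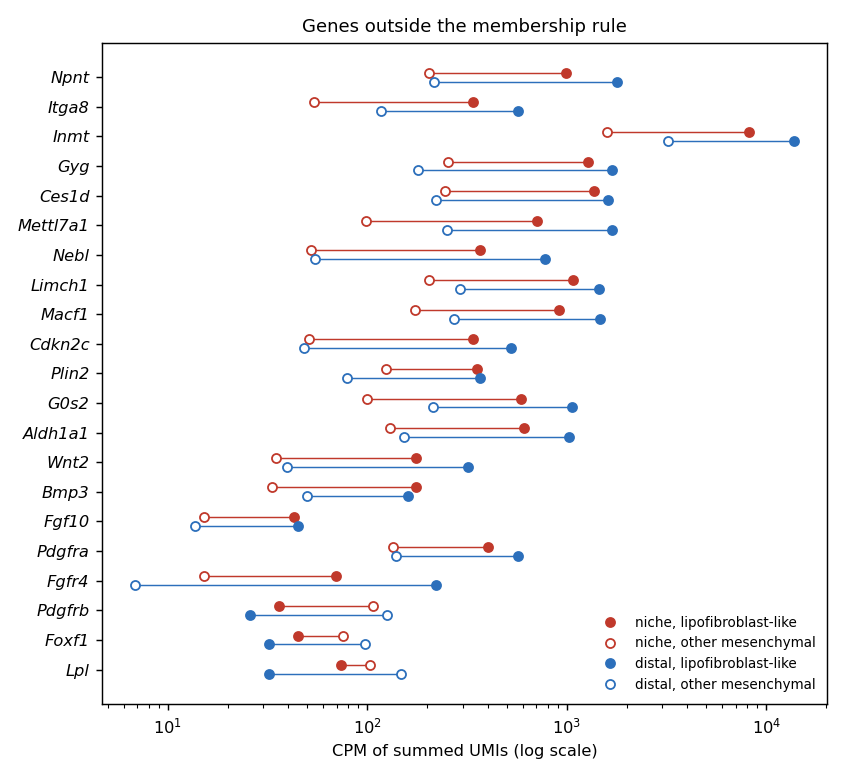
Level of 21 genes outside the rule in CPM (log axis), lipofibroblast-like cells as filled and other mesenchymal cells as open circles, niche in red above distal in blue. Of these genes, all but Pdgfrb, Foxf1 and Lpl stand to the right in the lipofibroblast-like cells of both libraries, with Npnt at 995 and 1773 CPM. Many were chosen because they stood highest in these cells, or after their values were seen, so the shared direction follows in part from that choice.

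Between the libraries, the genes called higher in niche members included the chemokine genes Cxcl10 and Cxcl1, the complement gene C3, the metallothionein gene Mt2 and the interferon-induced gene Irgm1, and those called lower included the surfactant gene Sftpc. Of 3625 genes with at least 30 UMIs in members, genes of the membership rule included, 187 (5.16%) were called higher and 134 (3.7%) lower in the niche. With scaling by the median of ratios in place of the UMI total, which moves every ratio by -0.08 on the log2 scale, 155 were called higher and 187 lower, and with thinned cells 56 higher and 26 lower of 1341 genes. Cxcl10, a chemokine gene induced by interferons, had 544 UMIs in niche and 39 in distal members (1222 against 125 CPM, log2 ratio 3.27, 2.82 to 3.80). It was detected in 64 of 142 niche and 11 of 136 distal members. When the original members deep enough to thin were thinned, it was detected in 41 of 142 and 9 of 124. Endothelial cells, with medians of 2355.5 and 1744 UMIs, had Cxcl10 in 26.7% of niche and 5.2% of distal cells, so its share in niche members, 45.1%, was above that of niche endothelial cells. The neutrophil chemokine gene Cxcl1 had 474 against 58 UMIs (1065 against 186 CPM, log2 ratio 2.51, 2.12 to 2.94), and the cytokine gene Il6 210 against 21 (2.78, 2.16 to 3.53). Il6 was detected in 41 niche and 5 distal members. Its ratio was 1.57 with the marker sum at 5 or above and 1.56 with thinned cells.

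Cxcl12, a chemokine gene that guides leukocytes and progenitors through the receptor CXCR4, had 174 UMIs in 49 niche members and 8 UMIs in 7 distal members (391 against 25.6 CPM, log2 ratio 3.85, 2.92 to 5.16). In endothelial cells it stood at 280 CPM in the niche against 370 in the distal library, so its difference in members ran against the endothelial level. Igfbp4, a binding protein gene of insulin-like growth factors, had values of the same kind, with 636 CPM in niche members against 93.0 in distal members (2.75, 2.22 to 3.38) beside 487 and 554 CPM in endothelial cells. The secreted Wnt inhibitor gene Sfrp1 had 38 UMIs in 22 niche members and 1 UMI in distal members (4.17, 2.17 to 10.08), and Apod, the gene of a lipid-carrying lipocalin, 93 against 6 UMIs (3.33). Has1, a hyaluronan synthase gene, had 58 against 2 UMIs (4.04, and 1.69 with a marker sum of at least 5, its interval holding equality), with 34 of the niche UMIs in 3 cells. Ccl21a had the highest ratio of the 12 (4.86, 3.51 to 7.38, 145 against 3 UMIs), but 119 of its niche UMIs lay in 1 cell. Without the highest cell of each library the Ccl21a ratio was 2.89, and as one of several near-identical gene copies its count is uncertain. Its level in endothelial cells was 5760 CPM in the niche against 837 in the distal library.

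**Figure D3:**
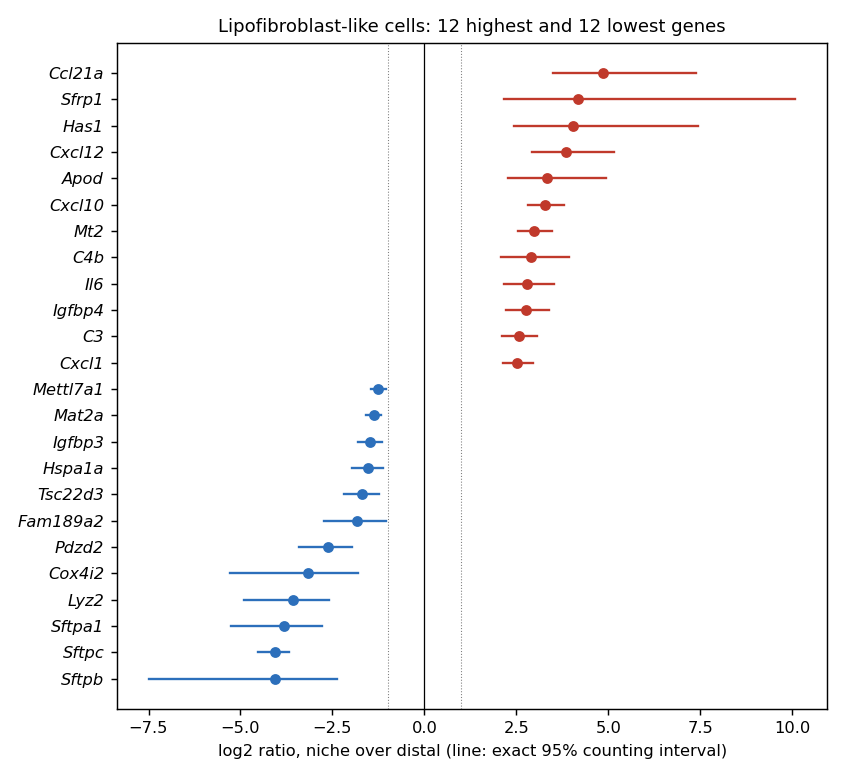
Log2 ratio of niche over distal in lipofibroblast-like cells for the 12 highest and 12 lowest genes by interval bound, points for ratios and lines for exact 95% counting intervals, with dotted lines at 2-fold. Cxcl10 stands at 3.27 and Cxcl12 at 3.85, while Sftpc stands at -4.07.

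Mt1 and Mt2 encode metallothioneins, small proteins that bind zinc and copper. Mt2 had 488 UMIs in niche and 43 in distal members (1096 against 138 CPM, log2 ratio 2.98, 2.54 to 3.48) and Mt1 1166 against 214 (2619 against 686 CPM, 1.93, 1.72 to 2.15). Mt2 was detected in 57 niche and 10 distal members. Of 19 measured metallothionein and oxidative stress genes, 3 were called higher and 0 lower, the third being the mitochondrial superoxide dismutase gene Sod2 (1.24), and the list's median was -0.17. For lists, genes with at least 10 UMIs were counted, of which 4.23% were called higher and 3.48% lower over all 7211 genes (median -0.02). This minimum was set on the UMIs of both libraries summed, so a gene could enter a list through its niche UMIs alone. Niche members held 445192 UMIs of the common genes and distal members 311908.

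The upstream sequences of 6 of these genes are shown because interferon-induced, cytokine and metallothionein genes were among those called higher in niche members. The patterns and genes were chosen with these values known. They are the 250 bases before the RefSeq transcription start (GRCm38.p6, the assembly of mm10), 5′ to 3′ on the gene's strand. Capitals mark matches on either strand to the core of the interferon-stimulated response element, which is GAAA, any 2 bases and GAAA, in Cxcl10 at chr5:92348890-92349139 (minus strand) and Irgm1 at chr11:48871421-48871670 (minus strand), where 2 matches overlap. They mark matches to the NF-kB pattern, which is GGG, any 2 bases, TT, any base and CC, in Cxcl1 at chr5:90890995-90891244 (plus strand) and Il6 at chr5:30012864-30013113 (plus strand), and they mark matches to the metal response element core, TGCGCNC or TGCACNC (N is any base), in Mt2 at chr8:94172368-94172617 (plus strand) and Mt1 at chr8:94178839-94179088 (plus strand).
Cxcl10: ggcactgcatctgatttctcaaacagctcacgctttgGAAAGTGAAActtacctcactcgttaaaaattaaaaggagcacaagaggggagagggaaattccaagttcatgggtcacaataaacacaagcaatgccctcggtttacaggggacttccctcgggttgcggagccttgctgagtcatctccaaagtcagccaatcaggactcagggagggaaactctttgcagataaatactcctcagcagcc
Irgm1: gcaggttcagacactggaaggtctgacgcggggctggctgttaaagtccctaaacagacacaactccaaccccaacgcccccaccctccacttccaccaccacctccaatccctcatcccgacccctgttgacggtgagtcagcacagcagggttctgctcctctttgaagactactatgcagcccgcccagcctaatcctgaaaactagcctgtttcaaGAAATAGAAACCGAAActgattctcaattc
Cxcl1: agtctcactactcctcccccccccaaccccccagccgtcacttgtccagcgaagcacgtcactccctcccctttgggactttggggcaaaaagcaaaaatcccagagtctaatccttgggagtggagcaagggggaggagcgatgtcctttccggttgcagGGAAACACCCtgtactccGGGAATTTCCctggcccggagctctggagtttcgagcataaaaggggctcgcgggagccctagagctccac
Il6: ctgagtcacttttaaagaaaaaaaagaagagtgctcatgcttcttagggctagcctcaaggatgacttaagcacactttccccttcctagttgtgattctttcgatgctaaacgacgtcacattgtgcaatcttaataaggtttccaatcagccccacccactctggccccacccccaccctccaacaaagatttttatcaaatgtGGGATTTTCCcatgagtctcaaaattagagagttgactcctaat
Mt2: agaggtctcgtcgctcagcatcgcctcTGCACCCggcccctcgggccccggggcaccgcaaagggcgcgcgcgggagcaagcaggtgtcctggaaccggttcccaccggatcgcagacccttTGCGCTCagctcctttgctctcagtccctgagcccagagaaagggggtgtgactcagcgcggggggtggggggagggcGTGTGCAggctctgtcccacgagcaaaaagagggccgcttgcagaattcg
Mt1: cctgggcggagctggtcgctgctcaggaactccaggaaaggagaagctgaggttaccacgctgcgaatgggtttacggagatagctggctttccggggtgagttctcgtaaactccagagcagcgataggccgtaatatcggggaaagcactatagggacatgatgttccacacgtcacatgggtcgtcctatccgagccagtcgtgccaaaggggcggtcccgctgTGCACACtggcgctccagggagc
Capitals mark only the pattern named for each gene. Cxcl10 also holds a match to the NF-kB pattern, 103 bases before the start and left in lower case, and none of the 6 sequences holds another match to a pattern not marked in it. The capitalised Cxcl10 match begins 213 bases before the start, those of Irgm1 at 30 and 24, of Cxcl1 at 89 and 71, of Il6 at 44, of Mt2 at 223, 128 and 50, and of Mt1 at 23. Promoters in the table matched 2763 of the 3625 genes. The interferon pattern was found in 14 of 139 promoters of genes called higher (10.1%), 1 of 100 of genes called lower (1%) and 3.01% of the remaining 2524, against 2.98% of all 32851 windows. The NF-kB pattern was found in 14.4% of promoters of higher genes (20 of 139), 6% of lower and 4.24% of the remaining genes, against 4.11% of all windows. The metal pattern is common, at 28.1% of promoters of higher genes, 33% of lower, 30.3% of the remaining genes and 21.4% of all windows. These are letter matches, not shown to be bound.

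Of 39 measured interferon response genes, 18 were called higher and 1 lower, 37 had a ratio above 0, and the median log2 ratio was 0.94 (1.58 with thinned cells). Irgm1, an interferon-induced GTPase gene, stood at 204 CPM in niche members against 54.5 in distal members (log2 ratio 1.87, 1.15 to 2.75), and Iigp1 of the same family at 1536 and 574 CPM (1.42, 1.18 to 1.67). Ifitm1, which encodes a membrane protein that restricts viral entry, stood at 553 and 122 CPM (2.17, 1.68 to 2.71). Other members of the list called higher were Gbp2 (1.58), Gbp4 (1.72), Gbp5 (2.51), Isg15 (1.35) and Zbp1 (1.40), while Irf1 had 0.21. Together the 47 listed genes had 14279 CPM in niche members (13930 to 14635) and 7557 in distal members (7255 to 7868).

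The same list differed by another amount in the neighbouring fibroblast classes. In the Hhip-Aspn type, cells with at least 3 UMIs of the alveolar myofibroblast genes and under 3 of the other sums, 30 of 42 measured interferon genes were called higher and 0 lower (median 2.32), with a summed level of 21249 CPM in 155 niche cells and 6252 in 94 distal cells. In the Pi16 type 2 of 34 were called higher and 1 lower (median 0.07), with 9183 CPM in 83 niche cells and 8555 in 41 distal cells. Over all genes measured, 289 of 6951 were called higher and 359 lower in the Hhip-Aspn type. In the Pi16 type 71 of 4832 were called higher and 166 lower. Distal Pi16 cells held 103794 UMIs of the common genes against 311908 in distal members, so fewer genes could be called there. This holds for the counts of other lists in these classes too. The Cxcl9-Timp1 type existed in the niche library alone at the set limit (182 niche cells against 0 of 373 distal mesenchymal cells, exact interval 0% to 0.984%). Its level was 38160 CPM, a description only, since its cells were picked by inflammatory genes. The limit counted UMIs without scaling for depth. Median UMIs per cell were 5300.5 in this type, against 3570 in all niche and 2153 in all distal mesenchymal cells. Whether depth had a part in the absence of distal cells was not tested. For the interferon list, members lay between the Hhip-Aspn and Pi16 types in the median and in the niche level. That order was read from 1 library per group and not tested.

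Of 20 measured genes of MHC class I presentation, 5 were called higher and 1 lower, 19 had a ratio above 0, and the median was 0.75. B2m, the shared light chain, stood at 6141 CPM in niche members against 3447 in distal members (log2 ratio 0.83, 0.73 to 0.94), the heavy chain gene H2-K1 at 919 and 442 (1.05, 0.77 to 1.34), and Psmb8, a subunit gene of the immunoproteasome, at 274 and 131 (1.05, and 0.77 with thinned cells). Tap1, which carries peptides into the endoplasmic reticulum, had 59 against 10 UMIs (1.99), and 0.10 with thinned cells. The medians in the Hhip-Aspn and Pi16 types were 1.55 and -0.16. MHC class II genes had 4 of 5 called higher (median 1.66), but few cells carried them. Cd74 was detected in 24 of 142 niche and 30 of 136 distal members, and 95 of its 142 niche UMIs were in 3 cells. H2-Ab1 had 43 against 12 UMIs in 11 cells of each library, with 33 of the niche UMIs in 3 cells, and its log2 ratio of 1.29 was -0.22 with thinned cells. Cd74 reached 3244 CPM in niche against 2739 in distal endothelial cells, against 319 and 99.4 in members.

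**Figure D4:**
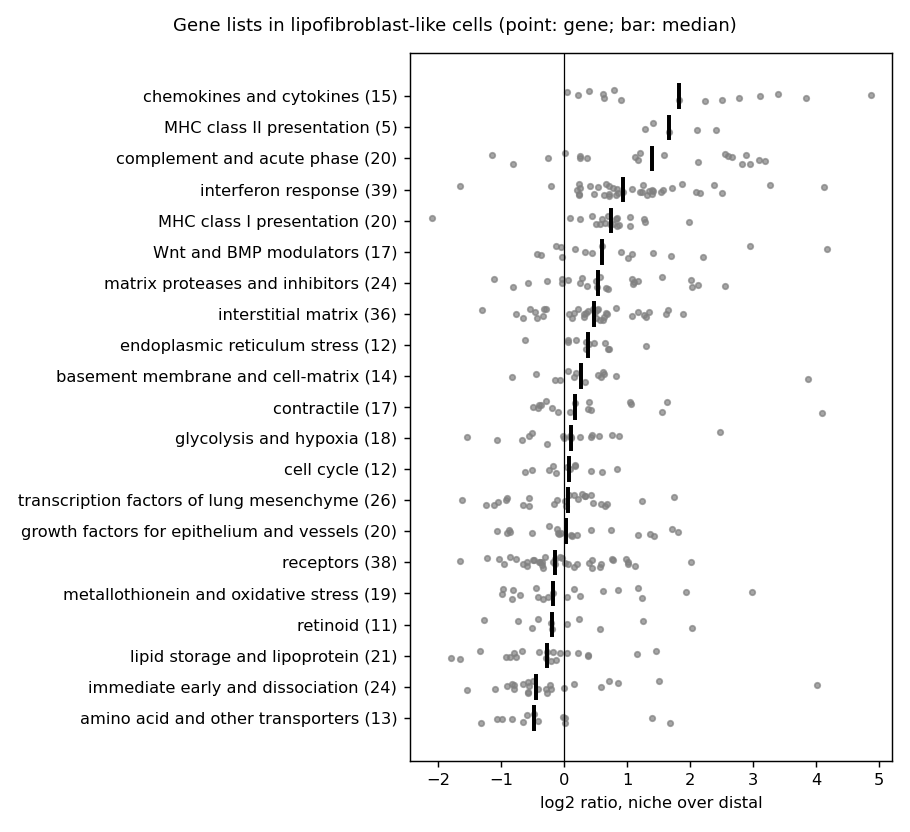
Log2 ratio of niche over distal in lipofibroblast-like cells by gene list, a point per gene with at least 10 UMIs and a bar at the median, with the number of measured genes in brackets. Chemokine (1.82), MHC class II (1.66), complement and acute phase (1.40) and interferon response (0.94) medians are farthest to the right, and transporters (-0.48) and immediate early genes (-0.45) farthest to the left. None of the MHC class II calls was kept with thinned cells.

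Of 20 measured complement and acute phase genes, 13 were called higher and 0 lower, with a median of 1.40. C3, the central complement component, stood at 822 CPM in niche members against 138 in distal members (log2 ratio 2.56, 2.12 to 3.07) and was detected in 81 and 23 members. C4b stood at 296 and 38.5 CPM (2.89, 2.09 to 3.93). The serine protease inhibitor genes Serpina3n (2.67) and Serpina3g (2.95), the lipopolysaccharide-binding protein gene Lbp (3.19), Tnfaip6 (3.09) and Lcn2 (2.83) were called higher too. The Serpina3 genes form a family of close paralogs, so the split of UMIs between them is uncertain. In the Pi16 type the same list had 1 of 17 higher and 2 lower (median -0.24), and its summed level was 7622 CPM in niche cells against 9230 in distal cells, against 6402 and 3437 in members. In the Hhip-Aspn type 8 of 17 were higher (median 1.62), with 4457 CPM in niche cells against 1542 in distal cells. Saa3, a serum amyloid gene listed in the niche table only, had 396 UMIs in 34 niche members.

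Among 15 measured chemokines and cytokines, 8 were called higher and 0 lower. The median was 1.82, and 1.09 with thinned cells and 0.97 with a marker sum of at least 5. The called genes were Cxcl1, Cxcl2 (3.39), Cxcl12, Ccl7 (1.82), Ccl11 (2.23), Ccl19 (3.11), Ccl21a and Il6. Ccl2, a monocyte chemokine gene, was not among them, at 838 CPM in niche members against 635 in distal members (0.40, 0.15 to 0.66), although 41 niche and 17 distal members carried it. Several rest on few cells: Ccl19 was found in 5 niche members and Ccl11 in 6, with 14 of its 23 niche UMIs in 1 cell. Cxcl2, Ccl19 and Ccl11 entered the list through their niche UMIs, at 49.4 against 3.21, 40.4 against 3.21 and 51.7 against 9.62 CPM in niche and distal members. The Hhip-Aspn and Pi16 types had medians of 1.14 and 1.21. On the receiving side, the oncostatin M receptor gene Osmr had 54 UMIs in niche and 9 in distal members (2.01, 1.04 to 3.28), while Ifngr1, a chain of the interferon gamma receptor, had 160 against 177 (-0.66, -0.98 to -0.34).

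Npnt and Itga8, the label's markers outside the rule, were lower in niche members by less than 2-fold. Npnt had 443 UMIs in niche and 553 in distal members (log2 ratio -0.83, -1.02 to -0.65, and -0.50 with thinned cells). Itga8 had 150 against 178 (-0.76, -1.08 to -0.44, and -0.26 with thinned cells). Among lipid storage and lipoprotein genes, 2 of 21 were called higher (Lpl at 1.16 and the cholesterol exporter gene Abca1 at 1.45) and 2 lower (Fabp3, a fatty acid-binding protein gene, at -1.65, and Hilpda, a lipase inhibitor gene, at -1.33), and the median was -0.27. Plin2 had 157 UMIs in niche and 115 in distal members, a log2 ratio of -0.07 (-0.42 to 0.30). G0s2 had 262 against 332 (-0.85, -1.09 to -0.62). Hilpda rested on 10 against 18 UMIs and had a ratio of 0.60 with thinned cells. Of 11 retinoid genes 1 was higher, the retinol carrier gene Rbp4 (2.04, from 20 against 3 UMIs), and 1 was lower, Rarg (-1.27). Aldh1a1 stood at -0.74 (-0.98 to -0.50), and the median was -0.20.

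Of 20 growth factor genes, 2 were called higher and 1 lower (median 0.03). Igf1, insulin-like growth factor 1, was higher at 258 CPM in niche members against 99.4 in distal members (log2 ratio 1.36, 0.80 to 2.0), and Tgfb1 at 67.4 and 19.2 (1.72, 0.52 to 3.36). The lower gene was Figf, which is part of the rule. Wnt2 had 78 UMIs in niche and 100 in distal members (-0.87, -1.32 to -0.43), Bmp4 96 against 122 (-0.86, and 0.02 with thinned cells), Fgf10 19 against 14 (-0.09, -1.15 to 1.04) and Bmp3 78 against 50 (0.12, -0.40 to 0.67). Of 17 measured Wnt and BMP modulators, 4 were called higher and 0 lower (median 0.60), among them Sfrp1, the BMP antagonist gene Nbl1 (1.70, 1.42 to 2.01, 1258 against 385 CPM) and Htra1 (2.21, and 0.31 with thinned cells). Nbl1 was detected in 110 niche and 60 distal members. Of 38 receptors, 2 were higher and 3 lower (median -0.15). Fgfr4, a fibroblast growth factor receptor, had 31 against 69 UMIs (-1.65, -2.33 to -1.04), and Pdgfra 179 against 177 (-0.50, -0.80 to -0.19).

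Of 26 measured transcription factors of lung mesenchyme, 2 were called higher and 4 lower (median 0.05). Beside Tcf21, Snai2, a zinc finger factor of mesenchymal cells, was lower with 16 UMIs in niche and 35 in distal members (-1.62, -2.59 to -0.75), and the T-box gene Tbx2 had 88 against 117 (-0.92, -1.34 to -0.51). Osr1 was higher with 45 against 13 (1.24, 0.36 to 2.29, and 0.31 with thinned cells). Amino acid and other transporters had 2 of 13 higher and 1, Slc7a10 of the rule, lower (median -0.48), with Slc38a5, a glutamine transporter gene, at -0.83 (-1.19 to -0.46).

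The 12 lowest genes were of several kinds. Sftpc (log2 ratio -4.07, -4.52 to -3.67, 52 against 618 UMIs), Sftpa1 (-3.81), Sftpb (-4.07) and Lyz2 (-3.57) are products of alveolar type 2 cells or of myeloid cells. Sftpc was detected in 25.4% of niche and 96.3% of distal members, beside 25.7% and 95.8% of endothelial cells, and its ratio in the Hhip-Aspn type was -4.42. Whether these UMIs are background was not tested. The alveolar type 2 list reached a higher level in endothelial cells than in members of the same library. The niche values were 2413 against 141 CPM, and the distal values 19979 against 2442 CPM. The remaining 8 included the methionine adenosyltransferase gene Mat2a (645 against 1680 CPM, -1.38, -1.59 to -1.17), the insulin-like growth factor binding gene Igfbp3 (270 against 750 CPM, -1.47), Mettl7a1 (-1.25), the glucocorticoid-induced gene Tsc22d3 (-1.70, -2.19 to -1.24), the heat shock gene Hspa1a (-1.55), Fam189a2 (-1.84) and Pdzd2 (-2.63, 21 against 93 UMIs). With thinned cells Mettl7a1 had -0.53 and Igfbp3 -0.87. Pdzd2 and Cox4i2 (-3.18) are both in the pericyte marker list, whose sum was 114 CPM in niche and 506 in distal members. The highest distal member held 38 UMIs of that list. Cox4i2 was found in 2 niche and 3 distal members, with 14 of its 28 distal UMIs in 1 cell. Of 24 measured immediate early and dissociation genes, 2 were called higher and 2 lower (median -0.45), with the phosphatase gene Dusp1 at 2446 CPM in niche members against 4569 in distal members (-0.90, -1.02 to -0.79).

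Of 36 measured interstitial matrix genes, 7 were called higher and 0 lower (median 0.47). Genes of the rule are in this count and median, and Col3a1 is among the 7. Over the 40 listed genes the summed level was 30886 CPM in niche (30371 to 31406) and 32160 in distal members (31534 to 32796). A large part of this sum was Mfap4, a gene of the rule, with 9075 CPM for niche against 15424 for distal members. Col1a1, Col1a2, Col3a1 and Bgn, also of the rule and in the sum, had higher levels in niche members. Thbs1, the thrombospondin 1 gene, stood at 1114 CPM in niche members against 298 in distal members (log2 ratio 1.90, 1.58 to 2.24), Mfap5, a microfibril gene, at 355 and 112 (1.65, 1.13 to 2.23, and 0.91 with thinned cells), and Col3a1, a gene of the rule, at 1763 and 782 (1.17, 0.96 to 1.39, and 0.55 with thinned cells). Dcn had 107 UMIs in niche members, 77 of them in 1 cell. Eln, the gene of elastin, stood at 1725 and 1587 CPM (0.12, -0.04 to 0.29). Of 14 basement membrane genes, 1 was called higher, Col15a1, with 10 UMIs in 4 niche members and 0 in distal members. Of 24 measured matrix proteases and inhibitors, 6 were called higher and 1 lower (median 0.54), with the plasminogen activator gene Plat at 2.01 (0.84 with thinned cells and 0.41 with a marker sum of at least 5) and Timp1, held under the rule's limit, at 2.56. Of 17 measured contractile genes, 5 were called higher and 0 lower (median 0.17): Acta2, the smooth muscle actin gene, had 36 UMIs in 21 niche members and 1 UMI in distal members (4.09), Des had 1.64, Tpm1 1.06, Tpm2 1.56 and Tpm4 1.05. With thinned cells Acta2 had 2.07 (-0.02 to 5.58), Des 0.67 and Tpm1 0.15, none of them called, and with a marker sum of at least 5 Tpm4 had 0.83. Endoplasmic reticulum stress genes had 1 of 12 higher (median 0.37), glycolysis genes 1 higher and 1 lower of 18 (median 0.10), among them the hexokinase gene Hk2 at 2.47 (1.43 to 3.94), and cell cycle genes 0 of 12 in either direction (median 0.07).

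Single members of a library varied widely, and the libraries overlapped for each of 8 lists computed per cell. For the interferon list, niche members ran from 18.9 to 747 UMIs per 10000 with a median of 90.7, and distal members from 0 to 424 with a median of 51.8. The upper quartile of the distal members was passed by 74 of 142 niche members, and the 10% of niche members with the highest values held 31.7% of the summed per-cell values. Thinned to 1200 UMIs per cell, the medians were 12 UMIs in 142 niche and 6 in 124 distal members. Complement and acute phase genes had a median of 55.4 per 10000 in niche and 31.8 in distal members, and 94 niche members passed the distal upper quartile. Chemokines and cytokines had medians of 19.3 and 5.86 and 44.0% of the niche values in the highest 10% of cells. Lipid storage genes had medians of 53.7 in niche and 57.6 in distal members, and interstitial matrix genes 291 and 294. The matrix list includes Mfap4 of the rule, which was lower in niche members, so its medians do not show the other matrix genes alone.

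**Figure D5:**
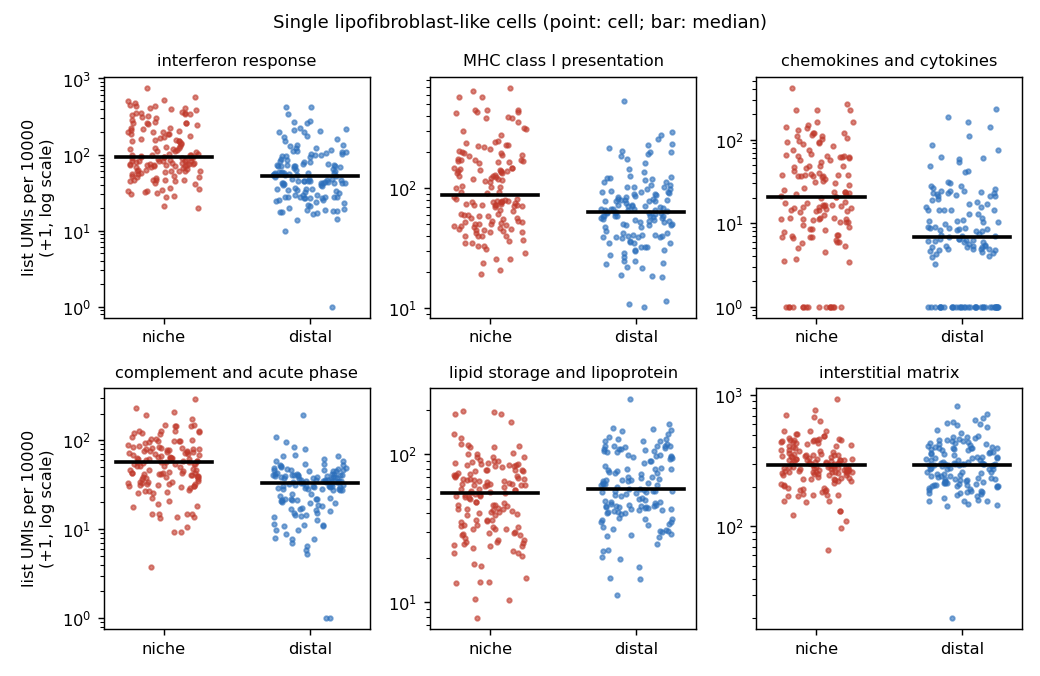
Summed UMIs of 6 gene lists per 10000 UMIs in each lipofibroblast-like cell (plus 1, log axis), niche left and distal right, with bars at the medians. Interferon, complement and chemokine medians are higher in the niche (90.7 against 51.8, 55.4 against 31.8 and 19.3 against 5.86), and lipid and matrix medians are close.

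The 23 niche cells that met every criterion but the limit on Cxcl9 and Timp1 belong to the Cxcl9-Timp1 type, and since the rule set them apart their values are a description. They held 124983 UMIs of the common genes. Cxcl10 stood at 9441 CPM in them (8910 to 9996), against 1222 in niche members and 125 in distal members, and Mt2 at 10585 (10023 to 11172), against 1096 and 138. Ccl2 was at 6385 CPM, against 838 and 635, Il6 at 1752, against 472 and 67.3, and C3 at 1912, against 822 and 138. Npnt and G0s2 were lower in these cells: Npnt stood at 440 CPM (332 to 573), against 995 and 1773, and G0s2 at 120 (67.2 to 198), against 589 and 1064. Plin2 stood at 296 CPM (208 to 408), against 353 in niche members and 369 in distal members. With these cells kept in the set, the median ratio of interferon genes was 1.81, that of MHC class I genes 1.17 and that of Cxcl10 4.58.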

How the data were processed

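The authors deposited raw UMI counts per gene and cell barcode, 1 table per library, with no normalization in the values. Per the labels' protocols, the libraries used Chromium Single Cell 3' kits and were read on an Illumina HiSeq. The submitters' processing notes name mm10 as the build and list R 3.4.1 and Cell Ranger 2.1.1. How genes and barcodes were filtered before deposit is not given in the sources used here. There were 1473 niche barcodes with 5283584 UMIs, and 1996 distal barcodes with 4791701 UMIs. Listed genes total at least 10 UMIs (niche) or 12 (distal), so an unlisted gene may still have had UMIs and got no ratio.

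The filter on genes and mitochondrial UMIs left out 50 niche and 9 distal barcodes. Cells were classed by the stated sums, without clustering (Python 3.11.15, numpy 2.4.6, scipy 1.17.1, pandas 2.3.3). UMIs were summed over members in each library. For the log2 ratio of niche over distal, 0.5 UMI was added to each sum before division by the total of common genes. The 95% interval comes from the binomial distribution of a gene's UMIs over the libraries, exact and with nothing added. CPM intervals are exact Poisson intervals. Cells are not replicates, so no p-value was computed. The ratio and interval were run on simulated Poisson sums, the model that the interval assumes, so this checked the computation alone. The simulation held no clumping of UMIs in single cells, as seen for Ccl21a and Dcn, and the intervals do not cover it. Scrublet (scanpy 1.11.5) called 10 niche and 27 distal doublets, which were kept.

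Members and lists were chosen with earlier results of these data known. Genes were named by rule if they were among the 12 at either end of the ranking by the nearer interval bound (30 UMIs or more, leaving out mitochondrial, ribosomal, haemoglobin and unnamed genes and those of the membership rule), among the 4 per list with the farthest bounds, markers of the label, or the 12 highest over other mesenchymal cells. Other genes named from the lists, including Plin2, Wnt2, Bmp3, Fgf10, Pdgfra and Ccl2, and the promoters were chosen after their values were seen. Alternatives were thinning, cell filters, the marker and inflammatory limits, doublets, low-Malat1 cells, scaling, cell weights and the count minimum. Leaving out shared barcodes and leaving out each gene's highest cell were added after seeing the data.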

Additional observations from a re-analysis of the deposited data

Results flagged for a closer look

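Saa3, an acute phase gene, was listed in the niche table only and entered no ratio. It had 396 UMIs in 34 niche lipofibroblast-like cells (885 CPM of all UMIs in the niche table, Poisson interval 800 to 977), beside 53.6 CPM in niche endothelial cells and 1886 CPM in other niche mesenchymal cells.

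Some genes were 2-fold apart in opposite directions in lipofibroblast-like cells and in a neighbouring fibroblast class, with counting intervals off equality in each. The difference was not tested, since each class has 1 library per group. The genes were picked by these values, and how many would be picked through counting error alone is not given here. Against the Hhip-Aspn type, the log2 ratio of niche over distal in lipofibroblast-like cells was 2.76 for the nuclear receptor gene Nr4a2 (-1.04 in the Hhip-Aspn type), 1.39 for Aqp1 (-1.34), 1.16 for Lpl (-1.58) and -1.23 for the integrin gene Itga9 (1.55). Against the Pi16 type, it was 1.03 for Hmcn1 (-1.29 in the Pi16 type), 1.03 for Mageh1 (-1.82), -1.23 for Pla2g12a (3.34), 1.39 for Aqp1 (-1.03), 1.37 for the growth arrest gene Gas6 (-1.03) and -1.09 for the heat shock gene Dnajb1 (1.40). The antigen presentation and complement genes H2-Ab1 (1.29, against -2.46 in the Pi16 type), Cd74 (1.66, against -3.03) and C2 (2.12, against -1.88) were flagged in the same way. Aqp1, H2-Ab1 and Cd74 rest on few lipofibroblast-like cells, and with thinned cells their ratios were 0.31, -0.22 and 0.58. Aqp1 had 13 of its 35 niche UMIs in 1 cell and reached 1181 CPM in niche against 1236 in distal endothelial cells.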

How the results depend on the processing

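The share of mesenchymal cells was 12.4% in the niche with cells thinned to 1200 UMIs, 10.8% with a marker sum of at least 5 and 20.8% with no limit on Cxcl9 and Timp1, and 30.8% in the distal library with a marker sum of at least 5. In each of these settings it was lower in the niche than in the distal library. The counts of genes called higher and lower were 56 and 26 (of 1341) with thinned cells, 96 and 75 (of 2710) with a marker sum of at least 5, 288 and 204 (of 4081) with no inflammatory limit, and 305 and 251 (of 7211) with a minimum of 10 UMIs, against 187 and 134 of 3625. Fewer UMIs or cells, or a lower minimum, change the number of genes measured. Every list median stayed, under each alternative that gave one, between the medians of its genes' interval bounds. That band is wide (0.35 to 2.19 for interferon genes) and is not an interval for the median, so it is a weak check. The interferon median ran from 0.83 to 1.81, that of complement and acute phase genes from 1.32 to 2.12 and that of chemokines from 0.97 to 2.45. H2-Ab1 changed sign with thinned cells (-0.22) and with a marker sum of at least 5 (-0.51), and Hilpda with thinned cells (0.60). The cause was not tested. Calls were lost with thinned cells for Mat2a (-0.89), Sod2 (0.96), Fabp3 (-1.17), Rarg (-1.05), Snai2 (-1.17), Rbp4 (3.11), Osmr (1.04) and Tgfb1 (1.68), the last 6 because the interval held equality, and with a marker sum of at least 5 for H2-K1 (0.91). MHC class II genes gave no median where fewer than 5 were measured, which was so with thinning, 1000 genes per cell, a marker sum of at least 5, without low-Malat1 cells and with a minimum of 30 UMIs. A gene's own ratio does not depend on the count minimum, so that alternative was not run for named genes. No paired analysis was possible because each group has 1 library. Depth limits genes under about 30 UMIs in members, whose intervals span several fold.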
